A study of Mus musculus with 19 samples.

Results

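The cadherin superfamily genes described here are the 50 genes of the array whose symbol is Cdh, Pcdh, Fat, Dchs, Celsr, Dsc or Dsg followed by a number, out of 19938 genes measured. Another symbol of this form was found on a shared probe set alone and has no value here. The clustered protocadherins (Pcdha, Pcdhb and Pcdhg) were left out, and each gene stands for the probe set that carries its symbol alone and has the highest mean over the 19 arrays. Membership rests on the symbol, but the family was chosen by measured values, since it was taken up because Cdh8 and Fat4 were lower in ibuprofen-fed APP-PS1 mice than in ibuprofen-fed wild-type mice in these same arrays. The values of Cdh8 and Fat4 are therefore given as a description, with no p-value printed for them. Where they count among members past a threshold, that is no independent support.

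Cadherins are membrane proteins whose extracellular cadherin repeats bind calcium and, in most members, bind the same or a related cadherin on a neighbouring cell. Classical cadherins hold on to the actin cytoskeleton through catenins, and in the hippocampus they sit at synapses, where type I and type II members mark different connections. Fat and Dachsous cadherins bind each other across cell borders, and Celsr proteins carry a receptor-like membrane domain and act in planar polarity. Protocadherins adhere weakly and shape neuronal wiring. Desmosomal cadherins join cells at desmosomes, which desmoplakin ties to intermediate filaments inside the cell.

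RNA was measured in hippocampus of C57BL/6J mice 6 months old with Affymetrix whole-transcript arrays. The transgenic mice are APPSwe-PS1deltaE9 (APP-PS1), which carry the transgenes the line is named for and form amyloid plaques, and their littermates are wild-type. Chow with 375 ppm ibuprofen, an inhibitor of the cyclooxygenases, or the identical chow without it was eaten from 3 to 6 months of age. The 4 groups were wild-type on control chow (n = 4), wild-type on ibuprofen chow (n = 5), APP-PS1 on control chow (n = 5) and APP-PS1 on ibuprofen chow (n = 5). The model rests on 1 transgenic line, and the labels do not state the sex of the mice. They also do not say whether an array holds 1 animal or a pool. The p-values therefore set a difference against the spread between these samples, which may be animals or pools.

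Levels are log2 values after robust multi-array averaging (RMA), a method meant to put arrays on a common scale. Array medians lay between 8.06 and 8.14. Over the genes measured, however, upper quartiles ran from 9.98 to 10.32 and means from 8.57 to 8.73. Both were highest on wild-type ibuprofen chow replicate 5, so counts of small differences above or below 0 depend on the scaling. App read 13.16 to 13.40 on wild-type and 13.55 to 13.64 on APP-PS1 arrays, with no overlap between the genotypes. The mean of 12 hippocampal neuron markers lay between 11.70 and 11.94 on every array. Pairs of arrays correlated at 0.980 to 0.999, with the lowest medians (0.987 and 0.9925) at replicates 5 and 1 of the ibuprofen-fed wild-type mice. Replicate 5 held the highest level of its group for 32 of the 50 cadherin genes, beside 51.7% of all genes. APP-PS1 control chow replicate 1 did so for 31 of the 50, beside 53.4% of all genes. These 3 arrays are called the 3 arrays apart, and values without them stand beside some of the named differences that they moved. APP-PS1 ibuprofen chow replicate 4 is not among them, though its median correlation (0.9942) was near that of APP-PS1 control chow replicate 1 (0.9943).

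Cdh8 encodes a type II classical cadherin of neurons. Its level read 10.92, 11.04, 10.97 and 10.98 in wild-type mice on control chow, and 11.09, 11.10, 11.15, 11.06 and 11.28 in wild-type mice on ibuprofen chow. The APP-PS1 arrays read 11.19, 10.98, 11.11, 11.08 and 11.07 on control chow and 10.86, 10.94, 10.74, 10.84 and 10.88 on ibuprofen chow. Every wild-type array on ibuprofen lay above every wild-type control array, and every APP-PS1 array on ibuprofen lay below every APP-PS1 control array. The highest group mean was 11.14 ± 0.08 (SD, n = 5) in ibuprofen-fed wild-type mice. It was followed by the control-chow means, 11.09 ± 0.08 (SD, n = 5) in APP-PS1 and 10.98 ± 0.05 (SD, n = 4) in wild-type mice, and by 10.85 ± 0.07 (SD, n = 5) in ibuprofen-fed APP-PS1 mice. Each group overlapped its neighbour in that order.

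For Cdh8 the APP-PS1 minus wild-type difference was 0.11 ± 0.05 (SE) on control chow and -0.28 ± 0.05 (SE) on ibuprofen chow. Ibuprofen minus control chow was 0.16 ± 0.05 (SE) in wild-type and -0.24 ± 0.05 (SE) in APP-PS1 mice. The genotype differences on the 2 diets share no array, and neither do the 2 ibuprofen differences. The interaction, the ibuprofen difference in APP-PS1 minus that in wild-type mice, was -0.39 ± 0.07 (SE), and it was -0.26 after another quantile normalization and -0.29 with arrays centred on their medians.

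Fat4 encodes a giant cadherin that binds the Dachsous cadherin Dchs1. It read 10.02, 10.18, 10.08 and 10.09 in wild-type mice on control chow, and 10.01, 10.07, 10.22, 10.09 and 10.56 in wild-type mice on ibuprofen chow. In APP-PS1 mice it read 9.97, 9.72, 10.15, 9.95 and 9.97 on control chow and 9.48, 9.98, 9.40, 9.64 and 9.37 on ibuprofen chow. All 5 ibuprofen-fed APP-PS1 arrays lay below all 5 ibuprofen-fed wild-type arrays, with replicate 2 (9.98) just under the lowest of those (10.01). The other 4 lay below every array of the remaining groups. Group means were 10.19 ± 0.22 (SD, n = 5) in wild-type mice on ibuprofen, 10.10 ± 0.07 (SD, n = 4) in wild-type controls, 9.95 ± 0.15 (SD, n = 5) in APP-PS1 controls and 9.57 ± 0.25 (SD, n = 5) in ibuprofen-fed APP-PS1 mice, and neighbours in this order overlapped.

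For Fat4 the genotype difference was -0.14 ± 0.12 (SE) on control chow and -0.62 ± 0.11 (SE) on ibuprofen chow. Ibuprofen minus control chow gave -0.38 ± 0.11 (SE) in APP-PS1 and 0.10 ± 0.12 (SE) in wild-type mice. Without wild-type ibuprofen chow replicate 5, which held the highest Fat4 level (10.56), the genotype difference on ibuprofen chow was -0.53 ± 0.10 (SE), and the ibuprofen difference in wild-type mice was 0.00 ± 0.10 (SE). Without APP-PS1 control replicate 2 (9.72) the genotype difference on control chow was -0.08 ± 0.12 (SE).

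Pcdh20, a non-clustered protocadherin, was the other member whose genotype groups did not overlap on ibuprofen chow. It read 11.20, 11.33, 11.07 and 11.28 in wild-type control, 11.39, 11.40, 11.34, 11.45 and 11.34 in wild-type ibuprofen, 11.47, 11.15, 11.33, 11.27 and 11.36 in APP-PS1 control, and 11.03, 11.29, 10.58, 11.13 and 11.09 in APP-PS1 ibuprofen arrays. The ibuprofen-fed wild-type arrays all lay above the wild-type control arrays, and APP-PS1 ibuprofen replicate 3 was the lowest of all 19. The genotype difference was 0.09 ± 0.10 (SE, adjusted p = 0.959) on control chow and -0.36 ± 0.09 (SE, adjusted p = 0.0778) on ibuprofen chow. Ibuprofen minus control chow gave -0.29 ± 0.09 (SE, adjusted p = 0.716) in APP-PS1 and 0.16 ± 0.10 (SE, adjusted p = 0.443) in wild-type mice, and the interaction was -0.45 ± 0.13 (SE, adjusted p = 0.208). None of these passed the threshold of 0.05 (limma, Benjamini-Hochberg over all genes). Without APP-PS1 ibuprofen replicate 3 the ibuprofen difference in APP-PS1 mice was -0.18 ± 0.06 (SE), and without wild-type control replicate 3 the genotype difference on control chow was 0.04 ± 0.10 (SE).

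**Figure D1:**
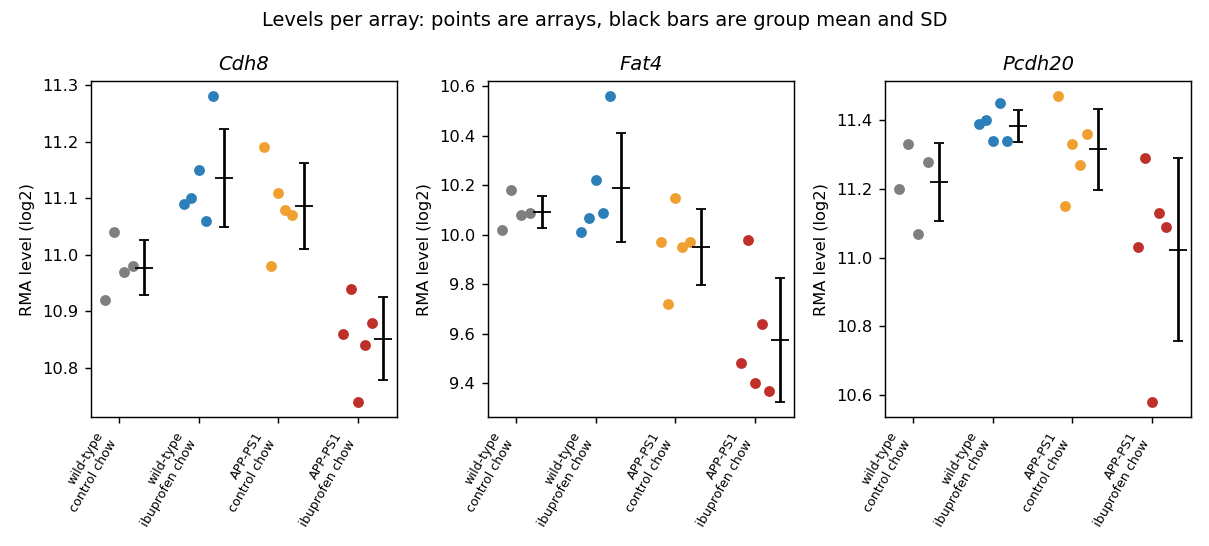
Log2 levels of Cdh8, Fat4 and Pcdh20 (vertical axes) in the 4 groups, with 1 point per array and black bars for the group mean and SD. In each panel the 5 ibuprofen-fed APP-PS1 arrays sit below the 5 ibuprofen-fed wild-type arrays, and in the Fat4 panel replicate 2 (9.98) sits apart from the other 4 (9.37 to 9.64).

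The promoter windows of Cdh8, Fat4 and Pcdh20 are shown because these are the members without overlap between genotypes on ibuprofen chow. Each window runs from 250 bases before to 50 bases after a start site that the RefSeq table uses on GRCm38.p6. For Cdh8 and Fat4 this site lies inside the outer bounds of the RefSeq gene, so other start sites of these genes are not shown. Capitals mark CpG dinucleotides. Cdh8 lies on the minus strand at chr8:99416422-99416721, Fat4 on the plus strand at chr3:38886690-38886989 and Pcdh20 on the minus strand at chr14:88471347-88471646.
Cdh8: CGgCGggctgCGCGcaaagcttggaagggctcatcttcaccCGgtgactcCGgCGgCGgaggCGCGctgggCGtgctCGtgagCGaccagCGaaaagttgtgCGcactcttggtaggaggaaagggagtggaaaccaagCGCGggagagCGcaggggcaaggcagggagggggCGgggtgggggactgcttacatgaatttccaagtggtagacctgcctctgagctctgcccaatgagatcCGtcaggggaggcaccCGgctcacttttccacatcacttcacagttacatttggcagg
Fat4: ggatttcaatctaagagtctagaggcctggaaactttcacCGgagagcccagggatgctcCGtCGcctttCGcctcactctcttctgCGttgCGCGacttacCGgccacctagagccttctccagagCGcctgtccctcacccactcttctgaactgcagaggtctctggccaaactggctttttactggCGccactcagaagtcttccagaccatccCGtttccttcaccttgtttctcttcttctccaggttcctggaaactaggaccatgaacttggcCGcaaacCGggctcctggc
Pcdh20: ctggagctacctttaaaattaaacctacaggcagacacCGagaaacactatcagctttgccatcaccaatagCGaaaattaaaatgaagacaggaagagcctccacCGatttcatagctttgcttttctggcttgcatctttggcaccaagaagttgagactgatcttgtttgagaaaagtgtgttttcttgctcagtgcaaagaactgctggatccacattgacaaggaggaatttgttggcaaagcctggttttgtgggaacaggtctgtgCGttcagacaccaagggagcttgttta
The windows differ in composition. That of Cdh8 holds 21 CpG and 62.3% G or C, that of Fat4 13 CpG and 55.7%, and that of Pcdh20 4 CpG and 43.7%. Over the 31 windows that RefSeq gave for 28 of the 50 genes the medians were 14.0 CpG and 60.3%, against 7.0 CpG and 52.7% over all 32851 windows. The GC box GGGCGG, on either strand, stood in the Cdh8 window and in 32.3% of the members' windows, against 35.7% of all windows. The TATA box TATAAA was in 6.45% of the members' windows and 13.6% of all, the cyclic AMP response element TGACGTCA in 0% and 1.79%, the E-box CAGATG in 9.68% and 17.2%, and the E-box CAGCTG in 9.68% and 16.3%. All 5 motifs were searched on both strands, and the last 4 occur in none of the 3 windows printed above.

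On control chow the family showed no called difference between genotypes. Limma called 0 of the 50 genes and 0.0100% of all genes (2 of 19938) at an adjusted p under 0.05. At an unadjusted p under 0.05 the counts were 0 of 50 and 5.87% of all genes. Differences ran from -0.26 to 0.11 with a median of -0.01, where all genes had a median of 0.02. In 24 of the 50 the difference was above 0, against 57.9% of all genes, and 18 with another quantile normalization and 11 with median centring were above 0, so no direction of the family is given. Cdh4, the R-cadherin gene, singled out after its values were seen, was the member whose groups did not overlap, at 9.17, 9.14, 9.14 and 9.25 in wild-type and 9.12, 9.08, 9.11, 9.09 and 9.02 in APP-PS1 mice. Its difference was -0.09 ± 0.10 (SE, adjusted p = 0.962). On control chow the groups did not overlap for 3.84% of all genes, and for 0.903% with APP-PS1 lower.

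On ibuprofen chow, limma called 2 of the 50 genes, Fat4 and Cdh8, both lower in APP-PS1 mice, and 0.271% of all genes (54), of which 50 (0.251%) were lower. Since the family was taken up for these calls, nothing is read from that count. At an unadjusted p under 0.05 there were 11 members (22.0%), 10 of them lower, against 24.5% of all genes (18.2% lower), so the family's share lay near that of the array. Cdh24, counted among the 10, gave -0.22 with the probe set used here, but 0.13 with its other probe set. The median difference was -0.05 in the family and -0.05 over all genes. Differences above 0 numbered 20 of 50, against 37.8% of all genes, and 23 or 27 under the other scalings, which moved the median of all genes to 0 and 0.02. Groups without overlap numbered 3 of 50, all lower in APP-PS1 mice, against 2.29% of all genes (2.06% lower). Cdh8 and Fat4 are among these 3, so nothing is read from this count either.

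**Figure D2:**
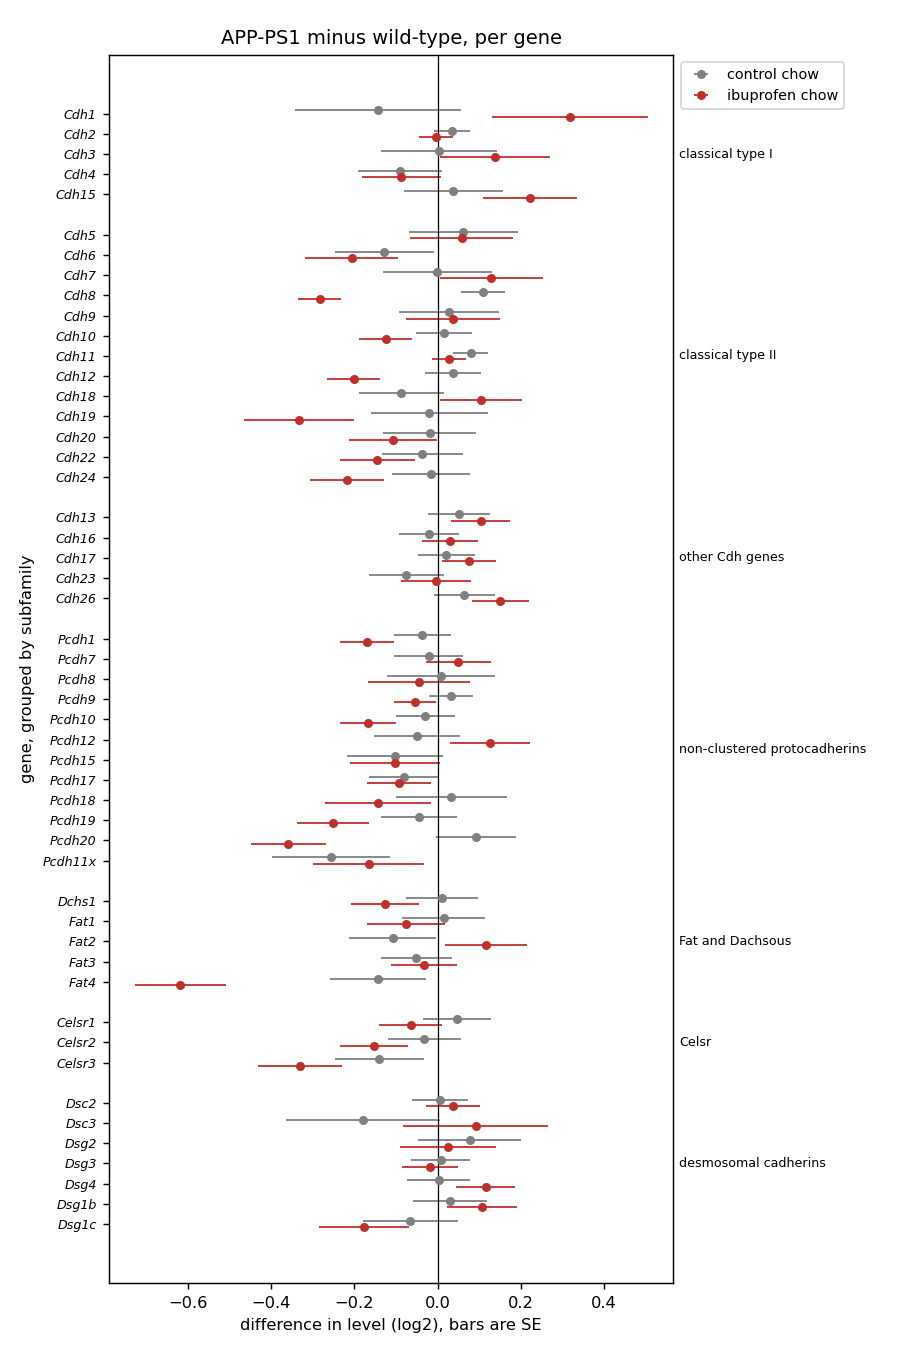
APP-PS1 minus wild-type difference in log2 level (horizontal axis, bars are SE) for the 50 genes (vertical axis, by subfamily), on control chow in grey and on ibuprofen chow in red. Most points lie within 0.2 of 0, with Fat4 at -0.62 and Cdh8 at -0.28 on ibuprofen chow.

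Among the 13 classical type II cadherins, 8 lay below 0 on ibuprofen chow, under each of the 3 scalings, and 1, Cdh8, was called. Cdh12, a brain type II cadherin, read 10.10 to 10.26 in ibuprofen-fed wild-type and 9.85 to 10.12 in ibuprofen-fed APP-PS1 mice. Its groups overlapped at replicate 1, and the difference was -0.20 ± 0.06 (SE, adjusted p = 0.131). Cdh10, a paralogue that acts at hippocampal synapses with Cdh6 and Cdh9, gave -0.13 ± 0.06 (SE), or -0.07 ± 0.06 (SE) without the 3 arrays apart, and Cdh6 and Cdh9 gave -0.21 ± 0.11 (SE) and 0.04 ± 0.11 (SE). Cdh19 varied more than most within groups, from 7.44 to 8.41 in ibuprofen-fed APP-PS1 mice, with a difference of -0.33 ± 0.13 (SE, adjusted p = 0.160) that was -0.18 ± 0.11 (SE) without replicate 4 of that group (7.44). Cdh11, known also from mesenchyme, held a narrow range in every group, from 11.86 to 12.09 over all arrays, with differences of 0.08 ± 0.04 (SE, adjusted p = 0.888) on control and 0.03 ± 0.04 (SE) on ibuprofen chow.

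Of the 5 type I cadherins, 0 were called in any of the 7 comparisons. Cdh2, the N-cadherin gene and a core adhesion molecule of synapses, had the smallest spread within groups in the family (pooled SD 0.05, against a family median of 0.15 and a median of 0.12 over all genes). Wild-type controls averaged 11.63 ± 0.03 (SD, n = 4) and ibuprofen-fed wild-type mice 11.69 ± 0.02 (SD, n = 5), beside 11.66 ± 0.09 (SD, n = 5) and 11.69 ± 0.03 (SD, n = 5) in APP-PS1 mice, a span smaller than the SD within APP-PS1 control arrays. Cdh1, the E-cadherin gene of epithelia, had the largest spread (pooled SD 0.34). It read 7.85 to 8.91 in wild-type control, 7.72 to 8.52 in wild-type ibuprofen, 7.73 to 8.38 in APP-PS1 control and 8.02 to 8.74 in APP-PS1 ibuprofen arrays, and its interaction was 0.46 ± 0.27 (SE, adjusted p = 0.310), or 0.25 ± 0.25 (SE) without wild-type control replicate 2 (8.91).

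The spread of Cdh1 and of Cdh3, the P-cadherin gene, went along with markers of non-neuronal tissue. The 6 arrays with the highest Cdh1 (8.38 to 8.91, next 8.27) were the 6 with the highest mean of 15 mural and meningeal markers (9.56 to 9.86, next 9.23), and they came from all 4 groups. Of the 6 arrays highest in Cdh3, 5 were among the 6 highest in the mean of 15 choroid plexus markers, which ran from 7.63 to 10.23 over the arrays. For Cdh5, the VE-cadherin gene of endothelium, and the mean of 11 endothelial markers, 4 of 6 arrays were shared. On ibuprofen chow 15 of 15 choroid plexus markers (median 0.66) and 13 of 15 mural and meningeal markers (median 0.20) read higher in APP-PS1 than in wild-type mice, 0 of them called. These pairs were chosen after their values were seen, and the part of such tissue in each level was not tested. In bulk tissue fewer cells of a type and less RNA per cell cannot be told apart.

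**Figure D3:**
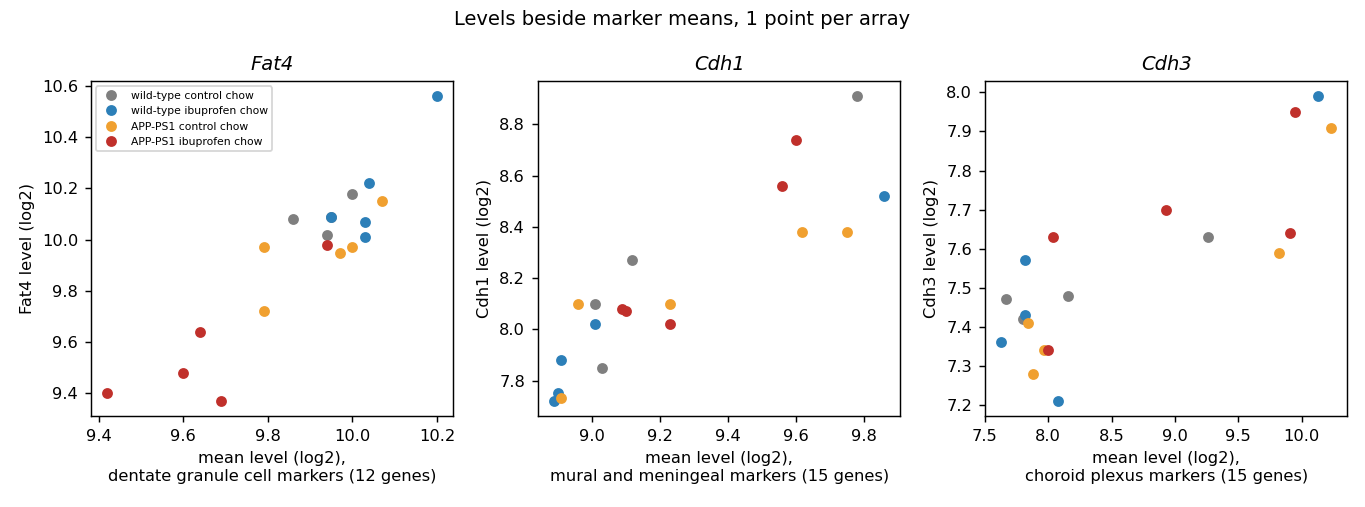
Log2 level of Fat4, Cdh1 and Cdh3 (vertical axes) against the mean log2 level of a marker list (horizontal axes: 12 dentate granule cell genes, 15 mural and meningeal genes, 15 choroid plexus genes), with 1 point per array coloured by group. The 4 lowest Fat4 points are ibuprofen-fed APP-PS1 arrays with dentate means of 9.42 to 9.69, and the 6 highest Cdh1 points lie at mural and meningeal means of 9.56 to 9.86.

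The non-clustered protocadherins held 10 of 12 genes below 0 on ibuprofen chow (9 and 8 with quantile normalization and centring), 0 of them called. After Pcdh20 the nearest to the threshold was Pcdh19, whose human gene is mutated in an epilepsy, at 10.82, 10.60, 10.67, 10.57 and 10.66 in wild-type and 10.42, 10.71, 10.13, 10.45 and 10.37 in APP-PS1 mice on ibuprofen. APP-PS1 replicate 2 lay above 4 of the 5 wild-type arrays, and the difference was -0.25 ± 0.09 (SE, adjusted p = 0.143). Pcdh1 gave -0.17 ± 0.07 (SE, adjusted p = 0.153), or -0.10 ± 0.06 (SE) without the 3 arrays apart. Pcdh11x, an X-linked protocadherin, had the family's lowest difference on control chow at -0.26 ± 0.14 (SE, adjusted p = 0.888), but a single array, wild-type control replicate 3 at 10.41, stood above 9.67 to 9.88 for the other 3 of its group, and without it the difference was -0.11 ± 0.13 (SE).

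Pcdh8, known as arcadlin and induced by synaptic activity in rat hippocampus, gave an ibuprofen difference of 0.21 ± 0.13 (SE, adjusted p = 0.448) in wild-type and 0.16 ± 0.12 (SE) in APP-PS1 mice. The wild-type value rested on replicates 1 and 5 of the ibuprofen arrays, at 9.26 and 9.12 against 8.72 to 8.78 on the rest. It was 0.13 ± 0.13 (SE) without replicate 1 and 0.03 ± 0.10 (SE) without the 3 arrays apart, while the APP-PS1 value became 0.25 ± 0.09 (SE). Left out alone, APP-PS1 control replicate 1 also gave 0.25, replicate 4 of that group 0.10, and APP-PS1 ibuprofen replicate 3 gave 0.07. Averaged over genotypes it gave 0.18 ± 0.09 (SE, adjusted p = 1). Its groups overlapped widely, from 8.59 to 8.88 in wild-type control and 8.72 to 9.26 in wild-type ibuprofen arrays. Pcdh7 gave 0.10 ± 0.06 (SE) in the same average, and Pcdh9, with a pooled SD of 0.08, -0.02 ± 0.04 (SE).

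Among the 5 Fat and Dachsous genes, 4 lay below 0 on ibuprofen chow (2 and 3 with quantile normalization and centring) and 1, Fat4, was called. Dchs1, the ligand of Fat4, gave -0.13 ± 0.08 (SE) on ibuprofen and 0.01 ± 0.09 (SE) on control chow. Fat1 gave -0.08 ± 0.09 (SE) and Fat2, best known from cerebellar granule cells, 0.12 ± 0.10 (SE) on ibuprofen chow. Fat3, which shapes dendrites in mouse retina, had 15 probe sets. On ibuprofen chow all 15 gave a genotype difference below 0, from -0.32 to -0.03, and the brightest, used here, gave the value nearest to 0 (-0.03 ± 0.08, SE). Their mean gave -0.20, and the brightest turned above 0 with quantile normalization (0.04) and centring (0.03). For ibuprofen in APP-PS1 mice all 15 lay below 0, from -0.21 to -0.04, while in wild-type mice 8 lay above and 7 below.

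The 3 Celsr genes all lay below 0 on ibuprofen chow (2 of 3 under the other scalings), and none was called. Celsr3, needed for the growth of axon tracts, read 10.08, 9.88, 9.85, 9.68 and 10.26 in wild-type and 9.53, 9.80, 9.56, 9.67 and 9.53 in APP-PS1 mice. Only wild-type replicate 4 fell within the APP-PS1 range, and the difference was -0.33 ± 0.10 (SE, adjusted p = 0.124). It was -0.25 ± 0.09 (SE) without wild-type replicate 5 and -0.18 ± 0.08 (SE) without the 3 arrays apart. On control chow it was -0.14 ± 0.11 (SE, adjusted p = 0.942), or -0.08 ± 0.11 (SE) without either wild-type replicate 3 or APP-PS1 replicate 4, and averaged over diets -0.24 ± 0.07 (SE, adjusted p = 0.399). Celsr2 gave -0.15 ± 0.08 (SE), or -0.07 ± 0.06 (SE) without the 3 arrays apart, and Celsr1 -0.07 ± 0.08 (SE) on ibuprofen chow.

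The 7 desmosomal cadherins and the 5 remaining Cdh genes gave 0 calls. The desmosomal cadherins had means of 5.6 to 7.67, all below the array medians of 8.06 to 8.14. Of the remaining Cdh genes only Cdh13 (10.62) had a mean above them. Whether these dim genes read above background was not tested, so 0 calls do not show stable expression. Dsc3 had a pooled SD of 0.32 and ran from 6.22 to 7.55 in ibuprofen-fed APP-PS1 mice alone, with an ibuprofen difference in wild-type mice of -0.32 ± 0.19 (SE, adjusted p = 0.440). Dsg2 gave 0.03 ± 0.12 (SE) between genotypes on ibuprofen chow, but 0.23 ± 0.10 (SE) without the 3 arrays apart. With array weights in limma it was called higher in APP-PS1 mice at 0.33 ± 0.09 (SE, adjusted p = 0.0346). Cdh13, the T-cadherin gene whose protein is tied to the membrane by a lipid anchor, gave 0.10 ± 0.07 (SE), or 0.16 ± 0.06 (SE) without wild-type replicate 5. Cdh17, an intestinal cadherin, gave 0.08 ± 0.06 (SE), or 0.03 ± 0.06 (SE) without APP-PS1 replicate 4 and 0.05 ± 0.07 (SE) without wild-type replicate 2. Cdh26 gave 0.15 ± 0.07 (SE, adjusted p = 0.190), and it was the member higher in APP-PS1 mice at an unadjusted p under 0.05.

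Ibuprofen minus control chow gave 0 called members in APP-PS1 mice and 0 in wild-type mice (limma), with 0% of all genes called in each. At an unadjusted p under 0.05 there were 4 members in APP-PS1 mice (8%, against 6.48% of all genes), namely Cdh8, Fat4, Pcdh20 and Cdh12, all lower on ibuprofen, as were 4.66% of all genes. Differences above 0 numbered 27 of 50 in APP-PS1 mice (41.8% of all genes) and 33 in wild-type mice (66.8%). Quantile normalization and centring made these 31 and 33 in APP-PS1 and 24 and 17 in wild-type mice. Cdh12 gave -0.20 ± 0.06 (SE, adjusted p = 0.716) there and 0.04 ± 0.07 (SE) in wild-type mice. In wild-type mice there was 1 member (2%, against 11.0% of all genes), Cdh8. Groups did not overlap for Cdh8 in APP-PS1 mice, where 2.77% of all genes did not overlap (2.27% lower), and for Cdh8 and Pcdh20 in wild-type mice, where 2.24% did not (1.94% higher). Each ibuprofen comparison shares its arrays with a genotype comparison, so these values are not separate evidence.

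**Figure D4:**
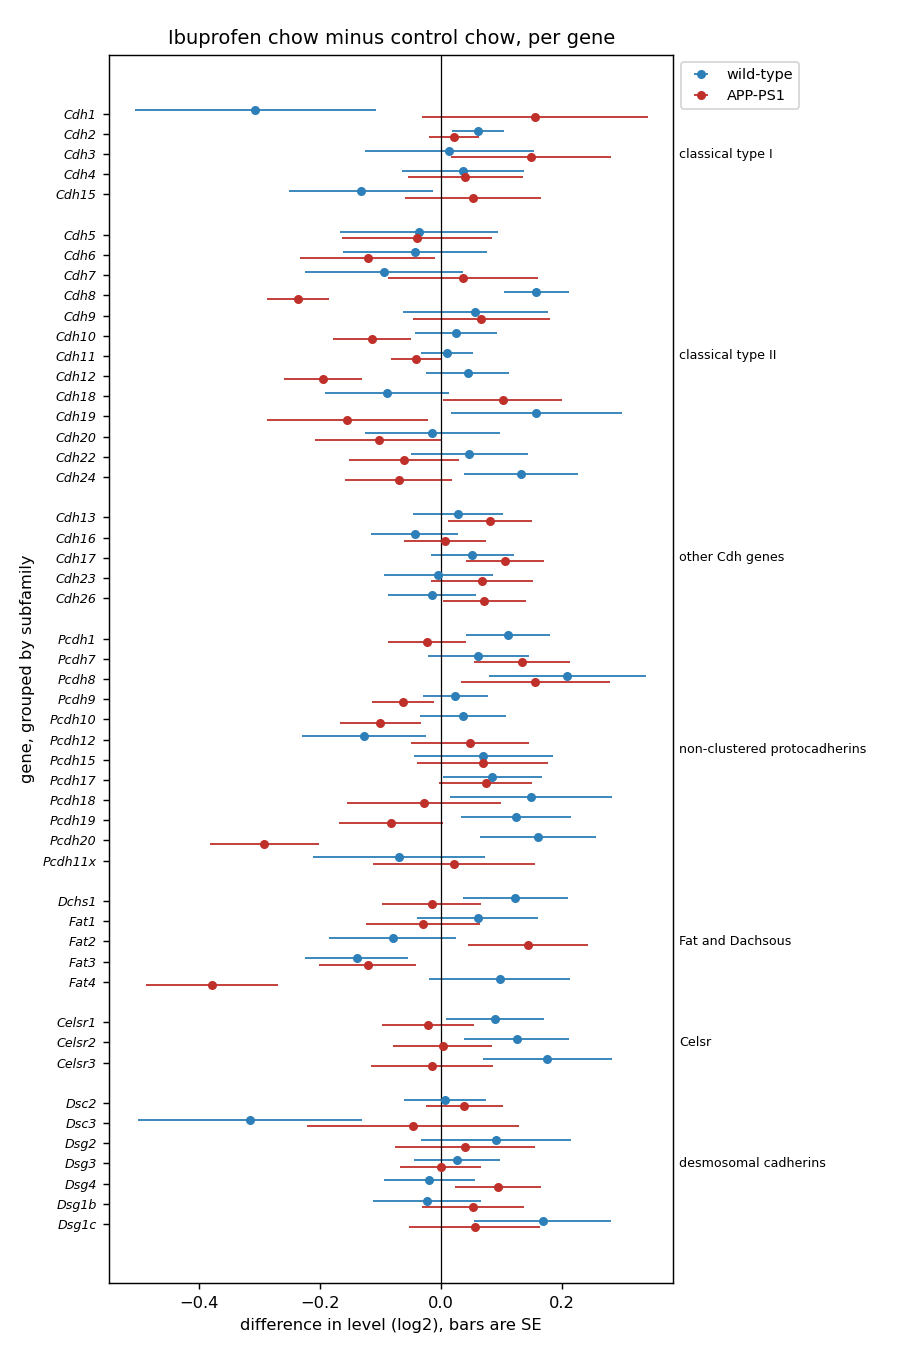
Ibuprofen minus control chow difference in log2 level (horizontal axis, bars are SE) for the 50 genes (vertical axis, by subfamily), in wild-type mice and in APP-PS1 mice. Cdh8 (0.16 and -0.24) and Pcdh20 (0.16 and -0.29) lie on opposite sides of 0 in the 2 genotypes.

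The interaction gave 0 called members of 50 and 0% of all genes, with 4 members (8%) at an unadjusted p under 0.05 against 20.5% of all genes (16% below 0). These were Cdh8, Pcdh20, Fat4 and Cdh12, at -0.39, -0.45, -0.48 and -0.24. Interactions above 0 numbered 21 of 50 (35.6% of all genes), and 31 and 33 with quantile normalization and centring. Averaged over diets, genotype gave 0 called members against 0.0251% of all genes, and 7 members (14.0%), 6 of them lower, against 7.70% (5.36% lower) at an unadjusted p under 0.05. Fat4 and Cdh8, for which the family was taken up, are among the 6, so nothing is read from that count. In that average 20 of 50 lay above 0 (45.1% of all genes). Averaged over genotypes, ibuprofen gave 0 called members and 0% of all genes, with 1 member (2%), Fat3 at -0.13 ± 0.06 (SE, adjusted p = 1; -0.08 ± 0.05 without wild-type control replicate 3), against 1.74%, and 30 of 50 lay above 0 (62.2% of all genes). The Fat3 value is that of the brightest of its 15 probe sets. For ibuprofen, 8 of the 15 lay above 0 in wild-type mice, while all 15 lay below 0 in APP-PS1 mice. The lowest of the 4 group means was that of ibuprofen-fed APP-PS1 mice in 18 of 50 genes (36.0%, against 33.8% of all genes), and the highest was that of ibuprofen-fed wild-type mice in 24 (48.0%, against 47.1%).

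Markers of several neuron types read lower in APP-PS1 than in wild-type mice on ibuprofen chow. Of 12 hippocampal neuron markers 11 lay below 0 (median -0.10) and 1, Prox1, was called, and of 13 markers of CA1 and CA3 pyramidal cells 12 lay below 0 (median -0.11) and 0 were called. Of 10 interneuron markers 8 lay below 0 (median -0.15), and of 10 markers of thalamus and habenula 7 did (median -0.10). Of 9 markers of neocortex and subiculum 5 lay below 0 and 4 above (median -0.14), and no gene of these further lists was called. Over all genes 37.8% lay above 0 (median -0.05, or 0 and 0.02 under the other scalings). Below 0 were also 9 of 11 oligodendrocyte and 7 of 11 endothelial markers (median -0.03 in each) and 6 of 10 astrocyte markers (median -0.04). Of 9 microglial markers 6 lay above 0 (median 0.04). These list counts are for the deposited scaling alone. Prox1 is also in the list of dentate granule cells, the principal neurons of the dentate gyrus. Of 13 dentate markers 12 lay below 0 in APP-PS1 mice with a median of -0.29 (11 with a median of -0.23 under both other scalings), and 5 were called lower, namely Prox1, Tdo2, Dsp, Il16 and Lct. The list was drawn up with an earlier analysis of these arrays known. Dsp, which encodes desmoplakin, gave -1.29 ± 0.19 (SE, adjusted p = 0.00545). The mean of the other 12 was 9.60, 9.94, 9.42, 9.64 and 9.69 in ibuprofen-fed APP-PS1 arrays and 9.79 to 10.20 on all others. The 4 arrays lowest in that mean were the 4 lowest in Fat4, while replicate 2, at 9.94, held the highest Fat4 level of its group. That array was the highest of its group for 16 of the 50 genes, beside 28.6% of all genes, and the lowest for Cdh10 (10.53). The 5 arrays lowest in Cdh8, and the 5 lowest in Pcdh20, each shared 4 arrays with the 5 lowest in the dentate mean. For Fat4, Cdh8 and Pcdh20 alike, the shared arrays were replicates 1, 3, 4 and 5 of the ibuprofen-fed APP-PS1 mice. These genes were singled out for low values in that group, and the pairs were chosen after their values were seen. The sharing therefore largely restates the group difference and is no separate evidence.

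With the dentate mean as a covariate, limma called 0 of the 50 genes on ibuprofen chow. The genotype difference was then -0.16 ± 0.12 (SE) for Fat4, -0.15 ± 0.07 (SE) for Cdh8, -0.06 ± 0.12 (SE) for Pcdh20, -0.06 ± 0.10 (SE) for Cdh12 and -0.26 ± 0.16 (SE) for Celsr3. The covariate itself differed between the groups compared, so that it takes up part of any difference they share, and 2 of all genes were called with it. With the choroid plexus or the mural and meningeal mean as covariate Fat4 gave -0.62 ± 0.11 (SE) and -0.66 ± 0.10 (SE) and Cdh8 -0.29 ± 0.05 (SE) in both. Penk, 1 of 8 striatal markers in this set of lists, was called higher by limma in APP-PS1 mice on ibuprofen chow, at 0.78 ± 0.13 (SE, adjusted p = 0.0128). Of the 8 markers 5 lay above 0 and 3 below, with a median of 0.06, so Penk does not stand for the list. Its part in the cadherin values was not tested.

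**Figure D5:**
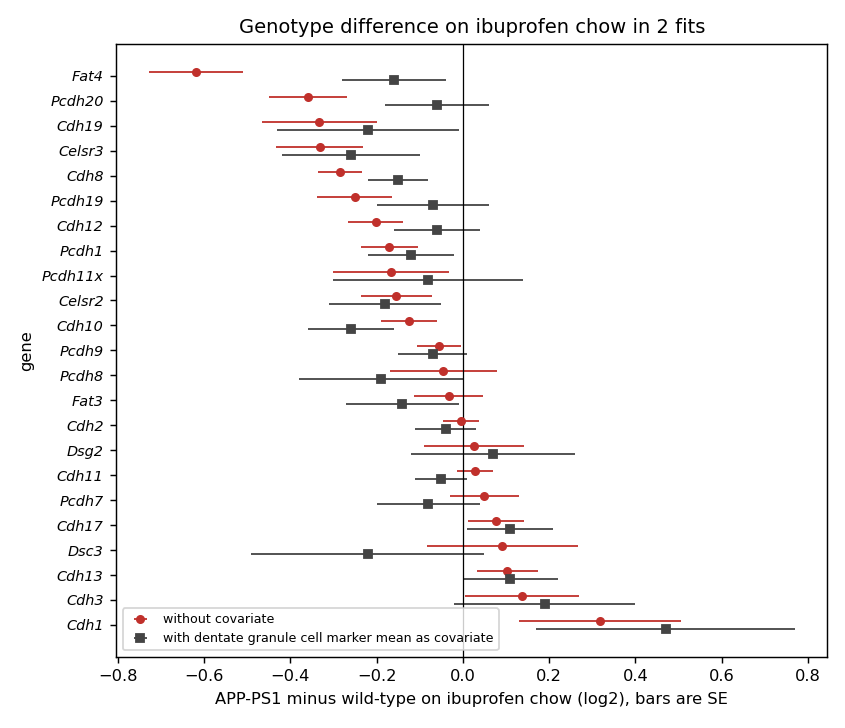
APP-PS1 minus wild-type difference in log2 level on ibuprofen chow (horizontal axis, bars are SE) for 23 named genes (vertical axis), without a covariate in red and with the mean of 12 dentate granule cell markers in the fit in dark grey. Fat4 lies at -0.62 without and -0.16 with the covariate, and Pcdh20 at -0.36 and -0.06.

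Partners of the cadherins were measured as lists. Of 15 catenins and other adherens junction adaptors, 0 were called in any comparison, with 13 below 0 for genotype on ibuprofen chow and 15 above 0 for ibuprofen in wild-type mice, where all genes had 37.8% and 66.8% above 0. With quantile normalization and centring these counts were 10 and 10 below 0, and 8 and 11 above 0. Ctnnb1, which links classical cadherins to alpha-catenin, gave 0.01 ± 0.04 (SE) on ibuprofen chow, the neuronal alpha-catenin gene Ctnna2 -0.12 ± 0.06 (SE, adjusted p = 0.199) and the delta-catenin gene Ctnnd2 -0.08 ± 0.04 (SE). Of 21 Fat, Dachsous and planar polarity partners 0 were called and 20 lay below 0 on ibuprofen chow (median -0.14), with 14 under each of the other scalings, among them Fjx1, mammalian counterpart of the Drosophila kinase four-jointed, at -0.12 ± 0.10 (SE). Of 9 cleavage genes 0 were called, and Adam10, a protease that sheds N-cadherin, gave -0.04 ± 0.05 (SE). Of 8 desmosomal plaque genes 1, Dsp, was called, while 5 lay above 0. Of 9 cadherin repeat genes with other symbols 0 were called, and Cdhr1, chosen after its values were seen, was nearest at -0.44 ± 0.11 (SE, adjusted p = 0.0670).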

How the data were processed

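The authors deposited log2 levels per probe set. The submitters' processing notes name RMA and Partek 6.5, and RMA's settings are not given in the sources used here. Of 35556 probe sets, 21789 carried 1 gene symbol in a platform annotation of 2016, 1621 several and 12146 none here. This gave 19938 genes, 999 with more than 1 probe set, and no filter on dim genes was applied. Limma 3.58.1 in R 4.3.3 fitted a mean per group to all 19 arrays, with 15 residual and 6.65 prior degrees of freedom and an intensity trend. Tests were two-sided, adjusted by Benjamini and Hochberg over all genes, with a threshold of 0.05, and the fit was tested on simulated data. Errors are SE of differences and SD of group means. The number of arrays limits the precision.

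Members and lists were chosen with earlier results of these data known. Named genes were Cdh8, Fat4, called members, the 5 members with the smallest p in each comparison, the member with the highest mean in each subfamily, the 5 with the largest spread within groups, called partner genes and 7 fixed partners, 1 of which is not reported here. Cdh4, Cdh5, Cdh6, Cdh9, Cdh24, Cdh26, Celsr1, Dchs1, Fat1, Fat2 and Penk fall outside this rule and were added after their values were seen. Promoter windows were matched to RefSeq GRCm38.p6 by symbol. Alternatives were other scalings, probe set rules, empirical Bayes settings, array weights, marker covariates, a replicate block, fewer groups and arrays left out. Batch, scan date and sex are not in the labels.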

Additional observations from a re-analysis of the deposited data

Results flagged for a closer look

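In 6 of 92 groups of arrays tested for the 23 named genes, 1 array lay farther from the rest than Dixon's critical value, and chance flags about 1 in 20 groups. Wild-type ibuprofen chow replicate 5 was the array for 3 genes, at 11.86 for Cdh11 (next 11.96), 10.81 for Cdh13 (next 10.57) and 10.38 for Pcdh11x (next 9.84). It also had the lowest median correlation with the other arrays (0.987). The others were wild-type control chow replicate 4 for Cdh12, at 10.02 (next 10.18), wild-type control chow replicate 3 for Pcdh7, at 10.28 (next 9.98), and APP-PS1 ibuprofen chow replicate 2 for Cdh10, at 10.53 (next 10.64).

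Of the 23 named genes, 2 met a rule on opposite ibuprofen responses in the genotypes. It asks that every ibuprofen-fed array of 1 genotype lie above its control mean and every such array of the other below. Fat4 and Cdh12 also had ibuprofen differences of opposite sign but did not meet it. This rule was not run over all genes, so the counts have no share of the array beside them. Over all genes, ibuprofen differences above 0 made up 66.8% in wild-type and 41.8% in APP-PS1 mice, and interactions above 0 made up 35.6%. For Cdh8 the interaction was -0.39, whether read as ibuprofen by genotype or as genotype by diet, and it is a description, since Cdh8 helped to choose the family. For Pcdh20 it was -0.45, with an adjusted p = 0.208 (limma), so the difference between genotypes did not pass the threshold. Pcdh20 was itself named for its small p-values in the interaction and in both ibuprofen comparisons, so meeting the rule is no independent support.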

How the results depend on the processing

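Fat4 and Cdh8 helped to choose the family, so their calls under alternatives describe these arrays and are no further support. The count of members called on ibuprofen chow stayed at these 2 under quantile normalization, centring, the filter on dim genes, the probe set mean, both empirical Bayes settings, the replicate block and the choroid and mural covariates. The count was 6 with array weights (adding Cdh12, Celsr3 and Pcdh20, lower, and Dsg2, higher, while all calls rose to 1004), 0 with the dentate covariate, 1 without the 3 arrays that an earlier analysis found to stand apart (Cdh8), and 0 with the compared groups alone, where fewer arrays estimate the spread and 5 genes were called. Leaving out 1 array gave 0 to 5, with 0 without APP-PS1 ibuprofen chow replicate 4, 1 without replicate 3, 4 without replicate 2, and 5 where replicate 4 of the ibuprofen-fed wild-type mice was left out. With array weights there were 3 calls for ibuprofen in APP-PS1 mice, 1 for the interaction and 2 for genotype averaged over diets, which had 1 with the mural covariate. Leaving out 1 array gave 0 to 1 for the interaction and 0 to 1 for the average, each 1 without APP-PS1 ibuprofen chow replicate 2. The cause was not tested for any of these. For the named genes' differences, 5007 of 5069 values under alternatives were counted as unchanged. A called difference counted so if it kept its call and direction. An uncalled one counted so if it moved by less than its pooled SD within groups, whether or not its sign turned. Celsr3 for ibuprofen in APP-PS1 mice, for example, went from -0.02 to 0.06 with quantile normalization. Of the rest, 54 moved, 8 lost the call and 0 turned a called direction. With the replicate block Cdh8 gave -0.28 ± 0.05 (SE), Fat4 -0.62 ± 0.12 (SE) and the count of members called stayed 2, while all calls were 197. Deviations of same-numbered arrays correlated at -0.27 to 0.60 over 27 pairs, 17 of them over 0.1. In the group pairs that share a genotype or diet, 2 of 4, 0 of 4, 3 of 5 and 3 of 5 were over 0.1, so the numbers were not taken to pair the samples. In the other 2 group pairs, which were not compared, 4 of 4 (0.12 to 0.60) and 5 of 5 (0.25 to 0.41) were.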
